A study of Mus musculus with 18 samples.

Results

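Of 18 RNA-seq libraries of mouse heart, 6 lay at the ends of the range of chamber marker levels, and these 6 are compared here. The atrium-dominant side was 3 libraries with Myl7, the atrial myosin regulatory light chain, at 1000 FPKM or more and Myl2, its ventricular counterpart, under 500 FPKM. The ventricle-only side was 3 libraries with Myl7 under 10 FPKM. The other 12 libraries met neither rule. The deposited transcript values carry no stated unit, were taken as FPKM (fragments per kilobase, scaled to depth) and were summed here to genes. The study treated WT C57BL/6 mice for 28 days with saline, with Angiotensin-II (AngII), a vasoconstrictor peptide, at 500 ng per kg and min, or with AngII and Ethoxysanguinarine (ETH), a plant alkaloid, at 10 mg per kg and day, and had 6 libraries of rRNA-depleted total RNA from cardiac tissue in each of the 3 groups. The atrium-dominant libraries were saline replicates 4 and 6 and AngII replicate 5. The ventricle-only libraries were replicate 5 of saline, 3 of AngII and 4 of AngII+ETH. All were WT, and treatment was not balanced between the sides, since ETH was given on the ventricle-only side alone. The labels give neither the chamber taken nor the age or sex of the mice, and leave it unsaid whether the libraries are from separate animals.

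Atrial and ventricular cardiomyocytes share most contractile and metabolic genes but differ in light chains, in the calcium pump regulators sarcolipin and phospholamban, in ion channels and in secretion. Atrial myocytes store atrial natriuretic peptide in granules and release it on stretch. Ventricular myocytes carry the pumping load, and the Iroquois factor Irx4 is known as a regulator of ventricular identity. The atria also hold the sinoatrial node, have much epicardium and connective tissue for their mass, and lie next to fat at the base of the heart.

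Stretches of 250 bases just upstream of the annotated start are shown for 3 genes that marked the atrium-dominant side and 1 that marked the ventricle-only side. Sequences are from RefSeq on GRCm38.p6, 5′ to 3′ on the strand of the gene. Capitals mark a T-box half-site (AGGTGT), the site of GATA factors (AGATAA, also searched for as TGATAA), the CArG box bound by serum response factor, and a TATA box (TATAAA). The last was searched on the forward strand and the others on both, and no marked motif overlaps another.
Myl7, chr11:5898783-5899032, minus strand: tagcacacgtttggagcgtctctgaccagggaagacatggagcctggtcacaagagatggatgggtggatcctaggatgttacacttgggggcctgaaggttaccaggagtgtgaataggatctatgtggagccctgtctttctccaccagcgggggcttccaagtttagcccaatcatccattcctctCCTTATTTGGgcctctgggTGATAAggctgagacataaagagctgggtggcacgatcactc
Nppa, chr4:148000472-148000721, plus strand: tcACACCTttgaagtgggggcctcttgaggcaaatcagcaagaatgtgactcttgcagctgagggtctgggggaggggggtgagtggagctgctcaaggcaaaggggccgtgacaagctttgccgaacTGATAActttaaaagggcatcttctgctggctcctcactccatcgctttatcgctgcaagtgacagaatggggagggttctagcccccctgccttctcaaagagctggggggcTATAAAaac
Mybphl, chr3:108364661-108364910, plus strand: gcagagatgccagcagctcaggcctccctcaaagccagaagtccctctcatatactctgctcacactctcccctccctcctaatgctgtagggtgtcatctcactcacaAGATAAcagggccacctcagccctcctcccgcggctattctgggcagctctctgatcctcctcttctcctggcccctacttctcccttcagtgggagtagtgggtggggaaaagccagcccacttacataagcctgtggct
Myl3, chr9:110763428-110763677, plus strand: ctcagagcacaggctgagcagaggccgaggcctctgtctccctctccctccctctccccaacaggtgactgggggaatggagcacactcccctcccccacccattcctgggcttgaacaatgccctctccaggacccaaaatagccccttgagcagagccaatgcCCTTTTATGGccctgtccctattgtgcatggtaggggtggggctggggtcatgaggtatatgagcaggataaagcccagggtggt
The Myl7 stretch held a CArG box starting 61 bases and a GATA site 42 bases before the annotated start. The Nppa stretch, upstream of the atrial natriuretic peptide gene, held a GATA site at 122 bases, TATAAA at 9 bases and, at 248 bases, a T-box half-site on the opposite strand. The stretch of Mybphl, an atrial myosin-binding protein H-like gene, held a GATA site at 141 bases, and that of Myl3, the ventricular essential light chain, a CArG box at 85 bases. A CArG box stood in 1.52% of the promoters of genes called higher on the atrium-dominant side and 4.91% of those called lower, against 1.23% of the promoters of all genes tested. The shares for the GATA site were 8.99%, 14.0% and 8.91%, and for the T-box half-site 10.9%, 10.6% and 9.21%. TATAAA was in 5.86%, 7.17% and 4.05%. Over all 32851 RefSeq promoters the shares were 1.47% for the CArG box, 16.6% for the GATA site, 11.8% for the T-box half-site and 7.59% for TATAAA. These are matches of letters in a window, not sites of binding, and the form of the CArG and GATA motifs was chosen after the sequences were seen.

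Myl7 was 3519, 3238 and 1854 FPKM in saline replicate 4, saline replicate 6 and AngII replicate 5, and was listed at 0 in all 3 ventricle-only libraries. Myl2 was 361, 3.77 and 3.37 FPKM on the atrium-dominant side and 6568, 6019 and 7060 FPKM on the ventricle-only side. Saline replicate 4 therefore held more Myl2 than the other atrium-dominant libraries. The other 12 libraries held both genes, with Myl7 from 455 to 3361 FPKM and Myl2 from 1102 to 5647 FPKM. The member nearest the Myl2 threshold was saline replicate 4, and the nearest library outside it was AngII+ETH replicate 5 at 1102 FPKM. The lowest Myl7 outside the ventricle-only side was 455 FPKM, in AngII+ETH replicate 1. Values throughout are given in the order saline replicate 4, saline replicate 6 and AngII replicate 5 for the atrium-dominant side, and saline, AngII and AngII+ETH (replicates 5, 3 and 4) for the ventricle-only side.

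The sides also differed in features of the libraries. Of the transcripts that each library's own file lists, 5.09 to 6.22% were at 0 on the atrium-dominant side. On the ventricle-only side the share was 7.35 to 8.71%, where the 7.35% of AngII+ETH replicate 4 is over a different list. Assembled transcripts without a gene name took 10.4 to 11.1% and 14.2 to 15.7% of the summed values. The AngII+ETH files differ from the rest in the transcripts they list, and a gene can be listed too low where its reads went to unnamed transcripts. Gapdh, a glycolytic enzyme that every cell uses, was between 0.422 and 14.7 FPKM, so a low value of a single gene does not show that it was absent. The part of these features in the results below was not tested.

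Of 11938 genes with a mean of at least 1 FPKM on 1 side or in the other 12 libraries, 1337 (11.2%) were called higher on the atrium-dominant side and 268 (2.24%) lower. A call means that the 3 values of one side all lay above the 3 of the other and that the means of log2(FPKM + 1) differed by 1 or more. Differences are atrium-dominant minus ventricle-only on this scale, which understates changes of low genes. Since the sides were chosen by levels in these same libraries, this contrast is a description with no test. The median difference over all genes was 0.32 and 72.8% of genes had a positive one. With median-of-ratios scaling that median was 0.04 and the calls were 769 higher (6.44%) and 580 lower (4.86%). With quantile normalization the median was -0.04 and the calls were 610 higher (5.11%) and 558 lower (4.67%). All 769 genes called higher with median-of-ratios scaling and 608 of those with quantile normalization were among the 1337. All 268 genes called lower as deposited were also called lower with median-of-ratios scaling. The counts of gene lists below are to be read beside these shares of all genes. In bulk tissue a smaller number of cells of a type and less RNA per cell cannot be told apart.

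Of the 17 genes of the atrial cardiomyocyte panel, 15 were called higher on the atrium-dominant side and 0 lower. With median-of-ratios scaling 13 were higher, with quantile normalization 12 and with AngII replicate 5 alone 13, with 0 lower in each. The 15 include Myl7, whose call the choice of libraries fixed. Without it 14 of 16 were higher and 0 lower, with a median difference of 3.13, and the summed level was 16536 to 56438 FPKM against 386 to 590 FPKM. Myl4, the atrial essential light chain, was 3605, 3064 and 6919 FPKM against 1.30, 1.65 and 1.70 FPKM, a difference of 10.70 (pooled SD 0.45, n = 3 per side). Sln, which encodes sarcolipin, an inhibitor of the sarcoplasmic reticulum calcium pump, was 595, 577 and 1146 FPKM against 0.111, 0.205 and 0 FPKM, a difference of 9.38 (pooled SD 0.41). Mybphl was 296, 284 and 520 FPKM against 0.206, 0.127 and 0 FPKM. For these genes the ventricle-only libraries lay at 1.70 FPKM or less, while every one of the other 12 libraries held at least 38.8 FPKM of each. Sbk3, a muscle serine-threonine kinase, was 103, 102 and 85.0 FPKM against 0.0269, 0.870 and 0.0262 FPKM, and its relative Sbk2 was 49.99, 53.4 and 64.6 against 4.10, 4.01 and 4.87 FPKM. Dkk3, a secreted Dickkopf-family protein, was 128, 100.04 and 287 FPKM against 0.528, 2.13 and 1.21 FPKM. The panel members not called were Nr2f2, an orphan nuclear receptor, and Kcna5, the channel of the ultra-rapid potassium current. Kcna5 was 4.12, 3.29 and 11.5 FPKM against 7.42, 13.2 and 18.8 FPKM, so its values overlapped and its difference of -1.03 ran toward the ventricle-only side.

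**Figure D1:**
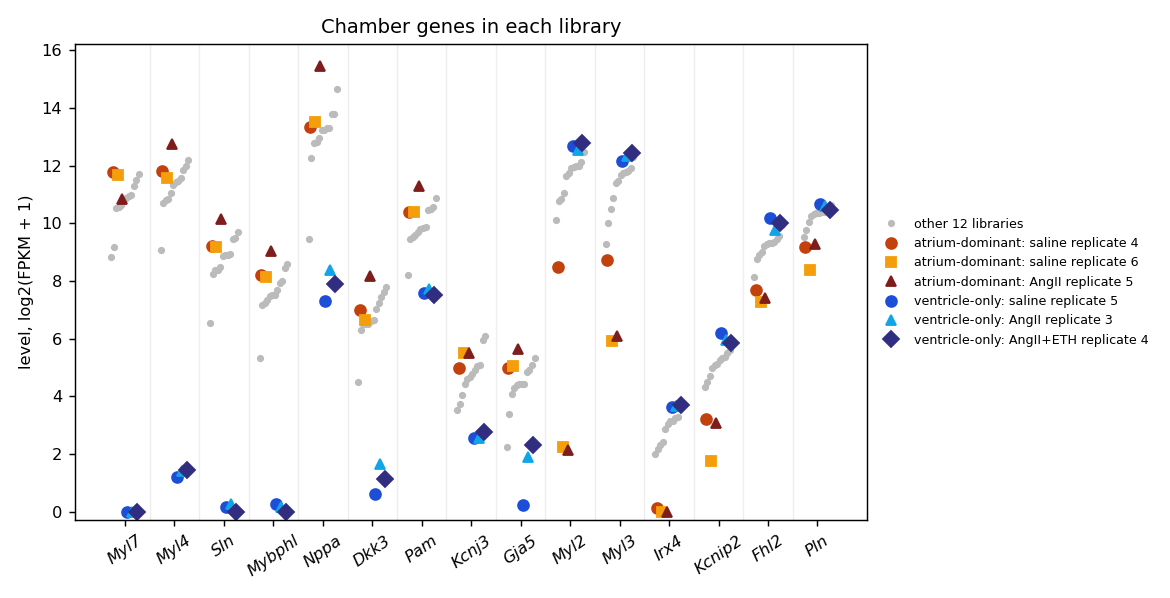
Levels of 15 chamber genes in each of the 18 libraries, as log2(FPKM + 1) on the vertical axis. Large symbols are the 3 atrium-dominant (warm colours) and 3 ventricle-only libraries (blue), and grey points are the other 12 in order of level. Myl7 is at 0 in the ventricle-only libraries, and Myl2 is 361 FPKM in saline replicate 4 against 3.77 and 3.37 FPKM in the other atrium-dominant libraries.

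Of the 12 ventricular panel genes with values, 8 were called lower on the atrium-dominant side and 0 higher, with either scaling as well. They include Myl2, which chose the libraries. Without it 7 of 11 were lower and 0 higher, with a median difference of -2.15. Myl3 was 422, 59.8 and 67.2 FPKM against 4611, 5174 and 5526 FPKM, a difference of -5.40 (pooled SD 1.11), and as for Myl2 its highest atrium-dominant value was in saline replicate 4. Irx4 was 0.102, 0 and 0 FPKM against 11.3, 11.6 and 11.95 FPKM, so it was at or near 0 also in saline replicate 4. Kcnip2, the subunit KChIP2 of the transient outward potassium channel, was 8.26, 2.35 and 7.34 FPKM against 72.8, 60.5 and 56.4 FPKM. Fhl2, a LIM-domain protein of the sarcomere, was 203, 153 and 169.9 FPKM against 1163, 869.5 and 1023 FPKM. Gpr22, an orphan receptor of cardiomyocytes, was 0.297, 0.274 and 0 FPKM against 5.08, 3.75 and 4.56 FPKM. Hey2, a Notch target often used as a ventricular compact-layer gene, was not called, at 5.10, 3.96 and 1.12 FPKM against 2.75, 1.86 and 1.80 FPKM.

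The 10 largest differences on the ventricle-only side held further muscle genes. Ogdhl, an oxoglutarate dehydrogenase-like enzyme, was 0, 0.0526 and 0 FPKM against 25.4, 41.7 and 43.0 FPKM. Rpl3l, the striated-muscle paralog of the ribosomal protein Rpl3, was 16.2, 6.40 and 6.01 FPKM against 191, 142 and 157 FPKM. Rpl3 itself went the other way, at 301, 281 and 274 FPKM against 93.4, 118 and 121 FPKM. This pair gave the only calls among the 30 ribosomal protein genes, 1 higher and 1 lower. Acta1, skeletal alpha-actin, was 26.6, 1.15 and 85.7 FPKM against 216, 1283 and 556 FPKM, with a wide spread on both sides. Lrtm1 (8.13, 1.77 and 0.401 against 61.7, 43.8 and 48.0 FPKM), Smyd2, a lysine methyltransferase (0, 8.44 and 5.14 against 52.1, 53.2 and 49.9 FPKM), Zbed5 (0, 0 and 1.69 against 19.1, 15.5 and 18.8 FPKM) and Ptgds, a prostaglandin D synthase (15.3, 6.80 and 30.9 against 117, 219 and 435 FPKM), were the others. Gm49540, at 1.45, 0.921 and 0 against 596, 38.8 and 351 FPKM, is annotated as antisense and overlaps the myoglobin gene Mb. Whether the reads of these 2 genes were kept apart is not known here. It is also not known for other overlapping genes, such as Zbed5 with Phkg1 and Lrtm1 with Cacna2d3. For Ogdhl and Smyd2, a transcript is missing from the list of some files. The same holds for other genes named in this text, among them Pam, Irx3, Kcne1, Gpr22, Msln, Mbp, Car3 and H3f3b.

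Transcription factors were called in both directions, with 6 of 24 called higher and 4 lower (5 and 4 with median-of-ratios scaling, 3 and 5 with quantile normalization). The shares of all genes as deposited were 11.2% and 2.24%. Tbx5, a T-box factor of the atria and conduction system, was 10.8, 11.7 and 11.3 FPKM against 5.14, 3.17 and 1.01 FPKM. Shox2, a sinoatrial node factor, was 2.90, 2.80 and 1.39 FPKM against 0.0801, 0.1002 and 0.124 FPKM. All 3 atrium-dominant libraries thus held Shox2 RNA at low level, above every ventricle-only library. On the other side, Irx3, which acts in the ventricular conduction system, was 2.82, 1.89 and 2.32 FPKM against 20.8, 10.4 and 12.1 FPKM. Bmp10, a growth factor of atrial, above all right atrial, myocytes, was 18.1, 37.5 and 0.0805 FPKM against 0.0195, 0.0240 and 0 FPKM. AngII replicate 5 thus lay near the ventricle-only libraries for Bmp10, although the other 12 libraries reached 868 FPKM with a median of 265 FPKM.

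Among channel genes, 3 of 18 potassium channel genes were called higher and 4 lower (2 and 4 with median-of-ratios scaling, 2 and 5 with quantile normalization). Of 12 sodium, calcium and pacemaker channel genes 4 were higher and 2 lower (4 and 3, and 3 and 3). Of all genes, 11.2% were called higher and 2.24% lower (6.44% and 4.86%, and 5.11% and 4.67%, with the scalings). Kcnj3, a subunit of the acetylcholine-gated potassium channel, was 30.6, 44.2 and 43.8 FPKM against 4.86, 4.93 and 5.82 FPKM. The ventricle-only side was higher for Kcne1, a subunit of the slow delayed rectifier (0.624, 0 and 0 against 1.44, 4.43 and 6.83 FPKM), and for Abcc9, the sulfonylurea receptor of vascular and ventricular KATP channels (8.27, 8.09 and 11.6 against 38.5, 34.9 and 39.7 FPKM). Cacna1h, a T-type calcium channel, was 18.4, 18.5 and 19.4 FPKM against 0, 0 and 2.26 FPKM. The sodium channel subunit Scn4b and the pacemaker channel Hcn2 were called lower, at 5.07, 2.52 and 1.04 against 12.3, 10.2 and 13.2 FPKM and at 3.94, 2.69 and 3.51 against 7.17, 12.5 and 16.1 FPKM. The pacemaker channel Hcn4 was 6.86, 6.78 and 0.251 FPKM against 2.33, 2.36 and 1.96 FPKM, so AngII replicate 5 lay below every ventricle-only library and the saline pair above. Of 10 sinoatrial node genes, 5 were called higher (4 and 2 with median-of-ratios scaling and quantile normalization) and 0 lower, among them Tbx18 and Cacna2d2, both at most 4.74 FPKM in these 6 libraries.

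The connexin of atria and conduction system, Gja5, was 30.7, 32.2 and 48.6 FPKM against 0.175, 2.73 and 3.95 FPKM, a difference of 3.74 (pooled SD 0.82). Gja1, the main connexin of working myocardium, was 75.2, 75.9 and 93.8 FPKM against 145, 103 and 109 FPKM, not overlapping but under the threshold of 1. Dsc2, a desmosomal cadherin, was 16.3, 16.2 and 19.5 FPKM against 5.39, 5.50 and 5.21 FPKM. Gja5 and Dsc2 were the called members of 13 connexin and intercalated disc genes, and with median-of-ratios scaling and quantile normalization 4 and 2 others were called lower. Of 19 adrenergic, muscarinic and adenosine signalling genes 4 were higher and 0 lower (2 and 1 higher with median-of-ratios scaling and quantile normalization, and 1 lower with the latter), where 11.2% and 2.24% of all genes were as deposited. Gnao1, a G protein subunit, was 29.7, 31.2 and 43.4 FPKM against 5.40, 7.66 and 5.99 FPKM, and Chrm2, the cardiac muscarinic receptor, 15.4, 14.2 and 28.0 FPKM against 9.89, 6.86 and 4.87 FPKM. Adora1, the adenosine A1 receptor, was 11.6, 19.9 and 4.34 FPKM against 3.33, 1.51 and 2.78 FPKM, lowest on its side in AngII replicate 5.

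Nppa was 10325, 11590 and 44819 FPKM on the atrium-dominant side and 157, 331 and 236 FPKM on the ventricle-only side, a difference of 6.24 (pooled SD 0.91). AngII replicate 5 held the highest Nppa of all 18 libraries. Gm13054, an antisense gene that overlaps part of Nppa on the opposite strand, was at 155, 240 and 1348 against 0.320, 1.27 and 0.852 FPKM. Whether its reads were kept apart from those of Nppa is not known here. Nppb, the brain natriuretic peptide gene, was 99.2, 74.7 and 2004 FPKM against 108, 564 and 126 FPKM, so the sides overlapped. Of the 8 genes of the natriuretic peptides, their processing and their receptors, 4 were called higher (3 with either scaling) and 0 lower. Pam, an amidating enzyme that is abundant in atrial granule membranes, was 1338, 1340 and 2496 FPKM against 192, 213 and 181 FPKM. Npr3, the clearance receptor, was 21.1, 22.5 and 42.2 FPKM against 1.32, 4.53 and 3.65 FPKM, and Npr1, the receptor that makes cyclic GMP, 22.3, 20.1 and 17.2 FPKM against 6.21, 8.59 and 8.81 FPKM. The granule enzyme Cpe, a carboxypeptidase, was 320, 279 and 306 FPKM against 93.2, 110.5 and 100.2 FPKM. Pam and Cpe were the called members of the 5 secretory granule genes with values.

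The summed level of contractile genes was lower in the saline atrium-dominant libraries and not in AngII replicate 5. For 41 sarcomere and Z-disc genes it was 9379, 9069 and 22794 FPKM against 22986, 23149 and 22953 FPKM. In these 6 libraries 1 was called higher and 10 lower (16 lower with median-of-ratios scaling, 9 with quantile normalization; median difference -0.82). With AngII replicate 5 alone set against the ventricle-only side the counts turned to 9 higher and 5 lower (median -0.004), against 13.3% and 4.74% of all genes. Actn2, the Z-disc alpha-actinin, was 291, 233 and 616 FPKM against 573, 654 and 643 FPKM. Tnnc1, cardiac troponin C, was lower in all, at 682, 484 and 804 FPKM against 2178, 2039 and 2329 FPKM, and so was Myh7, the slow myosin heavy chain, at 4.07, 13.8 and 17.3 FPKM against 31.5, 49.9 and 28.2 FPKM. Tpm2, beta-tropomyosin, was the one gene called higher, at 153, 121 and 68.0 FPKM against 17.97, 15.1 and 23.3 FPKM. Of 18 sarcoplasmic reticulum calcium handling genes 2 were called higher and 4 lower (1 and 6 with median-of-ratios scaling, 1 and 5 with quantile normalization). Pln, phospholamban, was 582, 330 and 623 FPKM against 1643, 1558 and 1416 FPKM, and Hrc, a calcium-binding protein of the reticulum, 141, 123 and 134 FPKM against 284, 296 and 298 FPKM. Atp2a2, the calcium pump itself, was 1968, 1746 and 2404 FPKM against 3321, 3248 and 3085 FPKM, a difference of -0.67 that did not reach 1.

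The summed level of fatty acid oxidation genes was lower on the atrium-dominant side and lowest in AngII replicate 5. For 26 genes it was 5457, 7238 and 3269 FPKM against 9799, 9495 and 9749 FPKM. In the 6 libraries 4 were called lower and 0 higher (13 lower with median-of-ratios scaling, 4 with quantile normalization), and with AngII replicate 5 alone 21 were lower, against 4.74% of all genes. Fabp3, the fatty acid-binding protein of heart muscle, was 912, 678 and 952 FPKM against 3566, 3744 and 3597 FPKM. Etfdh, which passes electrons from fatty acid oxidation to ubiquinone, was 54.1, 125 and 21.1 FPKM against 165, 154 and 156 FPKM, and Acot2, a mitochondrial thioesterase, 14.3, 15.7 and 5.01 FPKM against 28.2, 39.1 and 35.2 FPKM. Fabp3 thus differed alike in all atrium-dominant libraries, while the enzymes were lowest in AngII replicate 5. The saline libraries of this side held high adipocyte RNA, given below, and AngII replicate 5 also differed from them in treatment. The part of either in this pattern was not tested. Of 53 nuclear oxidative phosphorylation genes 6 were called lower and 0 higher (22 and 6 lower with median-of-ratios scaling and quantile normalization, 23 with AngII replicate 5 alone). Among them, Ckmt2, the sarcomeric mitochondrial creatine kinase, was 399, 324 and 434 FPKM against 1331, 1065 and 1363 FPKM, and Cox6a2, the muscle isoform of a cytochrome c oxidase subunit, 598, 451 and 649 FPKM against 1471, 1269 and 1454 FPKM. Of 21 TCA cycle genes only Idh2, mitochondrial isocitrate dehydrogenase, was called, at 304, 257 and 329 FPKM against 901, 864 and 833 FPKM (8 lower with AngII replicate 5 alone). None of the 11 mitochondrially encoded genes was called as deposited or with quantile normalization, and 1 was called lower with median-of-ratios scaling. Of 20 glycolysis genes 3 were lower and 1 higher, among them Eno3, muscle enolase, at 133, 153 and 182 FPKM against 363, 627 and 808 FPKM.

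Genes of the heart's outer layer were low in the ventricle-only libraries. Of 14 epicardium and mesothelium genes 13 were called higher on the atrium-dominant side and 0 lower (13 and 12 higher with median-of-ratios scaling and quantile normalization, 13 with AngII replicate 5 alone). Their summed level was 323, 358 and 243 FPKM against 33.9, 42.5 and 58.7 FPKM. Upk3b, a mesothelial uroplakin, was 40.7, 43.6 and 28.1 FPKM against 0.509, 0.753 and 0.654 FPKM. Msln, mesothelin, was 15.1, 20.8 and 23.5 FPKM against 0.202, 0.797 and 0.487 FPKM, and the keratin gene Krt19 was 11.0, 13.3 and 12.7 FPKM against 0.185, 0.514 and 0.163 FPKM. Upk1b was 7.67, 4.92 and 7.47 FPKM and listed at 0 in every ventricle-only library. The epicardial factor Wt1 was the member not called, at 3.14, 1.80 and 3.60 FPKM against 1.20, 1.84 and 1.43 FPKM.

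Many fibroblast and matrix genes were higher in all atrium-dominant libraries. Of 36 collagen and matrix genes 23 were called higher and 0 lower (17 and 18 higher with median-of-ratios scaling and quantile normalization, 30 with AngII replicate 5 alone). Their summed level was 3311, 2875 and 4308 FPKM against 1044, 1345 and 1338 FPKM. In the other 12 libraries it was 1520 to 5216 FPKM, so the highest of them lay above every atrium-dominant library. Col1a1, a chain of collagen I, was 119, 120.2 and 106 FPKM against 24.9, 27.8 and 27.1 FPKM, and Col3a1, collagen III, 236, 222 and 190 FPKM against 56.4, 40.8 and 52.0 FPKM. Postn, the matricellular protein periostin, was 84.6, 54.6 and 75.0 FPKM against 9.12, 13.5 and 8.37 FPKM. The saline and AngII members of each side were thus close for the collagens, with a pooled SD of 0.09 for Col1a1 around a difference of 2.07. Mfap4, a microfibril protein, was 99.3, 95.5 and 194 FPKM against 8.08, 14.8 and 12.3 FPKM, and Comp, a matrix protein of cartilage and tendon, 31.1, 10.7 and 62.4 FPKM against 0.562, 6.01 and 2.04 FPKM. Of 19 fibroblast genes 13 were called higher and 0 lower (9 higher with either scaling), and of 9 valve and tendon-like matrix genes 3 higher (2 with either scaling), with the proteoglycan Fmod at 29.2, 13.2 and 38.3 FPKM against 0.184, 3.75 and 1.02 FPKM. Of 16 complement genes 12 were higher (10 with either scaling) and 0 lower, among them the convertase component C3 at 186, 209 and 115 FPKM against 27.5, 30.6 and 49.1 FPKM, and C2, at 3.86, 5.11 and 2.95 FPKM and listed at 0 in every ventricle-only library.

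Most endocardial genes were called, and most general endothelial genes were not. Of 12 endocardium genes 8 were called higher on the atrium-dominant side and 0 lower (8 and 6 with median-of-ratios scaling and quantile normalization), while of 23 capillary and vascular endothelium genes 0 were higher and 1 lower (4 lower with either scaling). Plvap, a diaphragm protein of fenestrated and endocardial endothelium, was 47.7, 49.5 and 85.6 FPKM against 3.69, 8.995 and 10.4 FPKM. Bmp4, a growth factor, was 10.3, 7.68 and 9.30 FPKM against 2.09, 0.248 and 0.145 FPKM, and Cytl1, a secreted cytokine-like protein, 106, 72.9 and 42.8 FPKM against 6.53, 15.2 and 15.5 FPKM. The general endothelial cadherin Cdh5 was 50.5, 55.2 and 70.1 FPKM against 69.8, 83.2 and 96.4 FPKM, and the capillary gene Ly6c1 75.3, 65.7 and 83.4 FPKM against 129, 149 and 209 FPKM. Of 10 pericyte genes 3 were lower and 1 higher (3 and 0 with either scaling), with the KATP channel subunit Kcnj8 at 7.38, 8.63 and 11.3 FPKM against 21.5, 21.8 and 22.1 FPKM. Schwann cell genes were higher, 6 of 9 with 0 lower (4 and 3 with median-of-ratios scaling and quantile normalization, and 3 with AngII replicate 5 alone): Mbp, myelin basic protein, was 5.61, 7.21 and 3.03 FPKM against 0.201, 0.208 and 0.116 FPKM, and the glial factor Sox10 was 1.87, 1.52 and 1.02 FPKM and listed at 0 in every ventricle-only library.

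**Figure D2:**
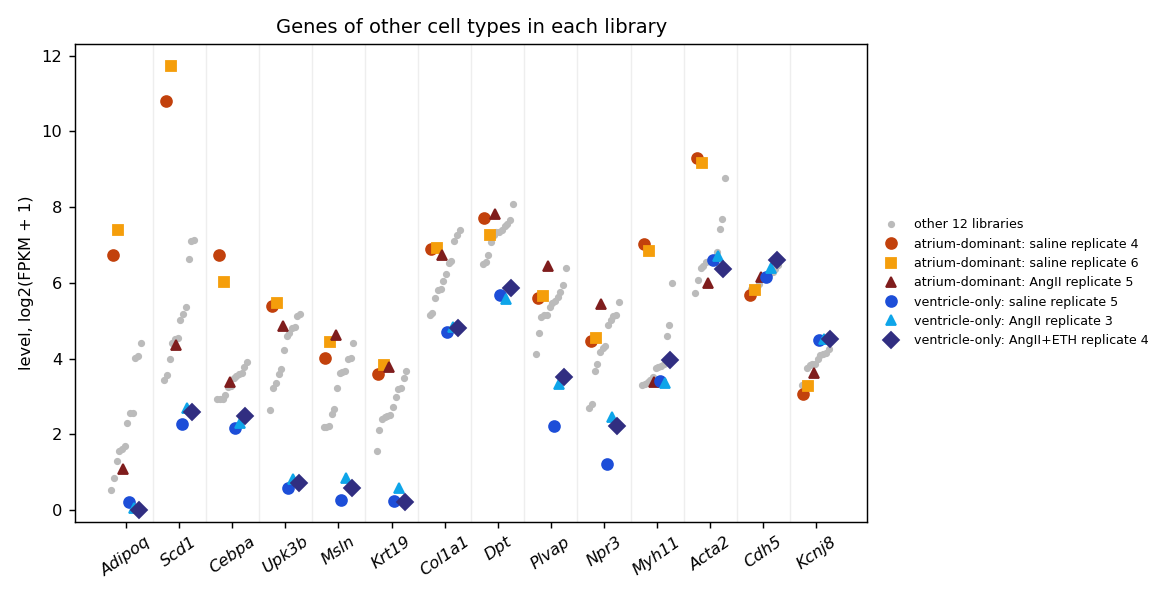
Levels of 14 genes of adipocytes, epicardium, fibroblasts, endocardium, smooth muscle, endothelium and pericytes in each of the 18 libraries, as log2(FPKM + 1) on the vertical axis, with symbols as in the plot of chamber genes. Adipoq, Scd1, Cebpa, Myh11 and Acta2 are high in saline replicates 4 and 6 and not in AngII replicate 5, while Upk3b, Msln, Krt19, Col1a1, Plvap and Npr3 are high in all 3 atrium-dominant libraries.

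Adipocyte RNA was high in saline replicates 4 and 6 and far lower in AngII replicate 5. Adipoq, the fat hormone adiponectin, was 105, 168 and 1.12 FPKM against 0.158, 0.0418 and 0 FPKM, and reached 20.4 FPKM in the other 12 libraries. Scd1, a fatty acid desaturase, was 1790, 3376 and 19.5 FPKM against 3.87, 5.50 and 5.08 FPKM. Cfd, the adipocyte protease adipsin, was 481, 673 and 8.97 FPKM against 0.380, 0.132 and 0 FPKM, and Car3, a carbonic anhydrase, 397, 540 and 4.89 FPKM against 0, 0.145 and 0.0594 FPKM. Of 13 white adipocyte genes 6 were called higher and 0 lower (1 lower with median-of-ratios scaling). With AngII replicate 5 alone 3 were higher and 1 lower, and the median difference went from 3.73 to 0.04. Their summed level was 2562, 4877 and 631 FPKM against 573, 1264 and 1284 FPKM. Retn and Cidec were listed at 0 in every ventricle-only library and Plin1, the lipid droplet perilipin, also in AngII replicate 5. Of 13 smooth muscle genes 3 were called higher and 1 lower, with the same counts when AngII replicate 5 alone was used. The lower one was Pln, which cardiomyocytes also express. The median difference of the list was 1.60 in the 6 libraries and 0.30 with AngII replicate 5 alone. Myh11, smooth muscle myosin, was 130.4, 113 and 9.35 FPKM against 9.62, 9.23 and 14.5 FPKM, and Acta2, smooth muscle actin, 632, 574 and 62.4 FPKM against 95.5, 104 and 80.9 FPKM. Cnn1, calponin, was called higher with 67.9, 56.3 and 29.2 FPKM against 1.69, 1.21 and 2.48 FPKM. Among the 1337 genes called higher, 46 were at least 2 log2 units higher in both saline atrium-dominant libraries than in AngII replicate 5, and 11 at least 2 lower in both. For 1051 of the 1337 AngII replicate 5 lay less than 1 log2 unit from the mean of the 2 saline libraries. With AngII replicate 5 alone, 978 of the 1337 and 210 of the 268 met the call, where 13.3% of all genes were called higher and 4.74% lower. The 1337 and 268 were already chosen for no overlap of this library with the ventricle-only side. Only the size of the difference could therefore fail.

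**Figure D3:**
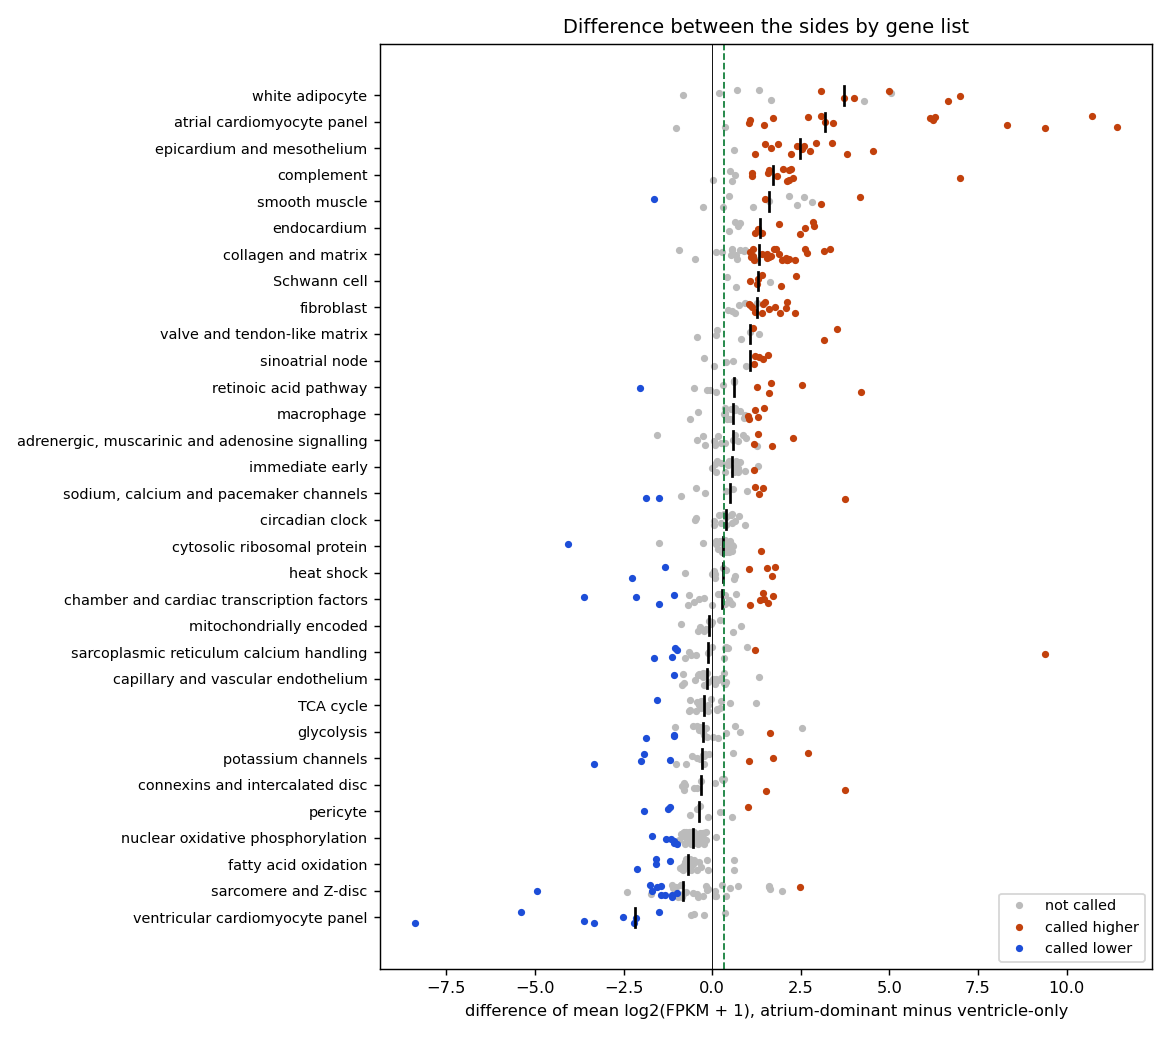
Difference of mean log2(FPKM + 1) between the atrium-dominant and ventricle-only sides (horizontal axis) for every tested gene of the lists shown (1 point a gene). Lists with 9 or more tested genes are shown. Red marks genes called higher, blue lower and grey neither. Black ticks are list medians, from 3.73 for white adipocyte to -2.18 for ventricular panel genes (Myl2 included), and the dashed line is the median of all genes, 0.32.

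The remaining lists are given beside the 11.2% of all genes called higher and 2.24% called lower. Of 14 retinoic acid pathway genes 5 were called higher (4 with either scaling), among them the retinaldehyde dehydrogenase gene Aldh1a2 at 10.8, 10.5 and 12.7 FPKM against 1.86, 3.63 and 3.53 FPKM, and 1 was lower, the receptor gene Rxrg at 12.6, 14.3 and 6.09 FPKM against 45.9, 40.4 and 50.8 FPKM. Of 15 heat shock genes 4 were higher and 2 lower (2 and 3 with median-of-ratios scaling, 2 and 2 with quantile normalization), and Hspb6, a small heat shock protein of muscle, was 156, 109.5 and 269 FPKM against 750, 805 and 835 FPKM. Of 20 macrophage genes 5 were higher as deposited, 2 with median-of-ratios scaling and 0 with quantile normalization. As deposited, 1 member each was higher among 20 immediate early, 6 lymphatic endothelium, 6 mast cell, 3 neutrophil, 5 brown adipocyte, 5 neuron and 5 skeletal muscle genes. None of 15 circadian clock genes, 5 red cell genes or 2 tested T and B cell genes was called. The lists for lung and thymocytes had no members with values.

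All genes were then tested in the 12 libraries that the rule did not choose. The measure was the slope of log2(FPKM + 1) on an atrial index, log2(Myl7 + 1) minus log2(Myl2 + 1), with treatment group as a term. Positive slopes mean higher levels in libraries with more Myl7 for their Myl2. The index ran from -3.63 in AngII+ETH replicate 1 to 1.41 in AngII+ETH replicate 5. Of 11936 genes, without Myl7 and Myl2, 424 rose (3.55%) and 141 fell (1.18%) with the index at a limma adjusted p under 0.05. With median-of-ratios scaling 199 rose and 467 fell, and with quantile normalization 220 rose and 345 fell. Of the 1336 genes called higher on the atrium-dominant side that were in this fit, 225 (16.8%) rose and 0 fell, and 1235 (92.4%) had a positive slope against 68.2% of all genes. Of the 267 called lower, 43 (16.1%) fell and 0 rose, and 251 (94.0%) had a negative slope. The median slope was 0.17 log2 units per unit of index for the first set and -0.16 for the second, against 0.05 for all genes. The median of the other 12 libraries lay between the means of the sides for 97.0% of the genes called higher and 97.4% of those called lower. The share over all genes was not worked out. The called genes were chosen for a gap between the sides, which by itself favours a median inside that gap. These shares therefore do not test the calls in the other 12 libraries. The slope calls rest on the libraries at the ends of the index. Without AngII+ETH replicate 1, 0 genes passed in limma (1038 positive and 427 negative at an unadjusted p under 0.05), without AngII+ETH replicate 5 also 0 (1096 and 277), and without both 0 (371 and 186). With all 12 the unadjusted counts were 2440 and 773.

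**Figure D4:**
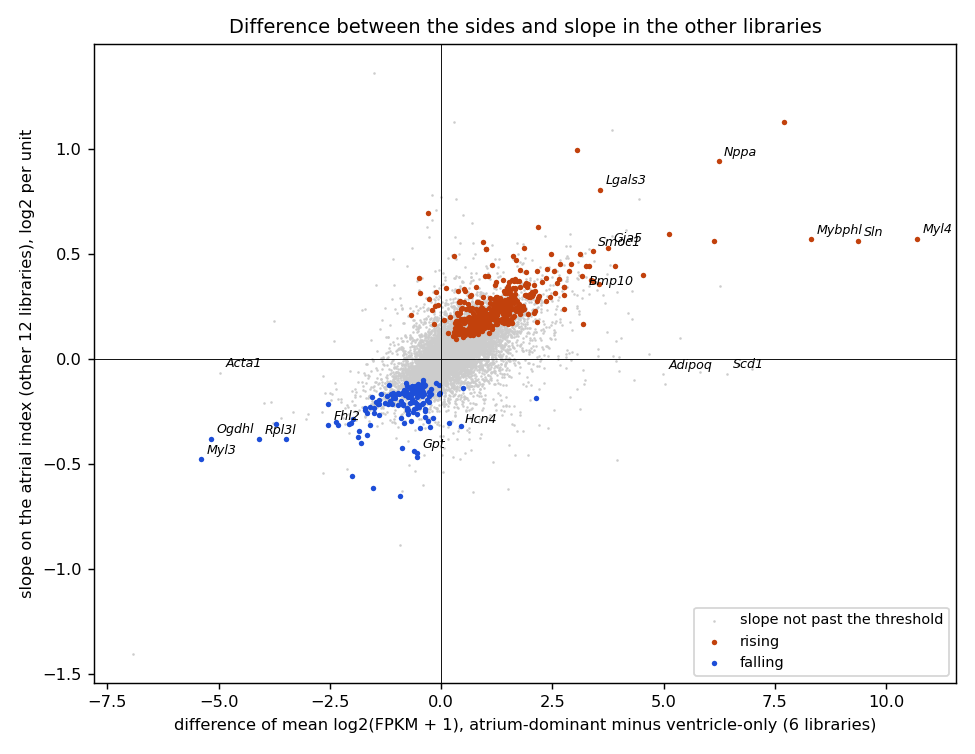
Slope on the atrial index in the other 12 libraries (vertical axis, log2 units per unit of index) against the difference between the atrium-dominant and ventricle-only sides (horizontal axis, log2 units), 1 point a gene. Red and blue points passed the limma threshold upward (424 genes) and downward (141 genes), and Adipoq and Scd1 lie far to the right with slopes of -0.07.

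Part of the atrial panel rose with the index within these 12 libraries, 6 of 16 genes tested, and 0 fell (also 6 and 0 with either scaling). Nppa had a slope of 0.94 (SE 0.14, limma adjusted p = 0.019), Mybphl of 0.57 (SE 0.10, adjusted p = 0.025), Myl4 of 0.57 (SE 0.12, adjusted p = 0.031) and Sln of 0.56 (SE 0.12, adjusted p = 0.037). Gja5 rose with a slope of 0.53 (SE 0.08, adjusted p = 0.019). Without both AngII+ETH replicates 1 and 5, when 0 genes passed, the slopes were 0.63 for Nppa, 0.27 for Mybphl, 0.42 for Myl4, 0.35 for Sln and 0.63 for Gja5. On the ventricular side Myl3 fell with a slope of -0.48 (SE 0.11, adjusted p = 0.039) and Rpl3l with -0.38 (SE 0.07, adjusted p = 0.024), while Rpl3 rose with 0.19 (SE 0.04, adjusted p = 0.040). Without those libraries these were -0.56, -0.24 and 0.07. Irx4 (-0.28, SE 0.09, adjusted p = 0.086), Kcnj3 (0.23, SE 0.11, adjusted p = 0.19), Tbx5 (0.35, SE 0.21, adjusted p = 0.31) and Bmp10 (0.33, SE 0.82, adjusted p = 0.83) did not pass.

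The smallest p-values among rising genes belonged to Smoc1, a secreted calcium-binding matricellular protein (slope 0.51, SE 0.05, limma adjusted p = 0.0087), Foxc1, a forkhead factor (0.33, SE 0.04, adjusted p = 0.017), the histone variant gene H3f3b, Abracl and Lgals3, galectin-3. Smoc1 was 27.0, 30.9 and 24.1 FPKM against 0.652, 2.58 and 2.14 FPKM in the 6 libraries, and Foxc1 6.26, 5.06 and 6.16 FPKM against 0.777, 1.52 and 1.19 FPKM. H3f3b and Abracl rose with the index but were not called between the sides. Among falling genes the smallest p-values belonged to Gpt, alanine aminotransferase, Dgat2, a triglyceride synthesis enzyme, Ppif, mitochondrial cyclophilin D, Fastk and Myzap, an intercalated disc protein. Ppif was 37.2, 29.6 and 33.0 FPKM against 94.8, 92.3 and 99.9 FPKM and had a slope of -0.23 (SE 0.03, limma adjusted p = 0.017). Without both AngII+ETH replicates 1 and 5 the slopes were 0.42 for Smoc1, 0.43 for Foxc1 and -0.24 for Ppif, and 0 genes passed.

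Many oxidative genes fell with the index. Of 26 fatty acid oxidation genes 13 fell and 0 rose (19 and 16 fell with median-of-ratios scaling and quantile normalization), against 1.18% of all genes. Acadm, a medium-chain acyl-CoA dehydrogenase, fell with a slope of -0.22 (SE 0.04, limma adjusted p = 0.024) and Hadh, a hydroxyacyl-CoA dehydrogenase, with -0.26 (SE 0.05, adjusted p = 0.025). In the 6 libraries Acadm was 325, 516 and 127 FPKM against 383, 367 and 372 FPKM, and Hadh 258, 343 and 76.3 FPKM against 324, 289 and 338 FPKM. Of the 6 libraries, both were thus highest in saline replicate 6 and lowest in AngII replicate 5. In saline replicate 4, which also held much Adipoq, both lay below every ventricle-only library. Of 21 TCA cycle genes 9 fell (16 and 10 with the scalings) and of 53 nuclear oxidative phosphorylation genes 13 (37 and 25), with 0 rising in either list. Of 41 sarcomere genes 0 fell and 1 rose (2 fell and 0 rose with median-of-ratios scaling), and of 11 mitochondrially encoded genes none passed. Of 14 epicardium and mesothelium genes 6 rose (5 and 3 with the scalings), with Upk3b at 0.40 (SE 0.08, limma adjusted p = 0.028) and Krt19 at 0.37 (SE 0.07, adjusted p = 0.026), and of 36 collagen and matrix genes 3 rose (1 and 4). Endocardial Plvap rose with a slope of 0.42 (SE 0.06, limma adjusted p = 0.017) and the Schwann cell gene Mbp with 0.27 (SE 0.04, adjusted p = 0.019). Each was the only 1 to rise, of 12 endocardium and 9 Schwann cell genes, and 0 fell. The median slope was 0.27 for the endocardium list and -0.04 for the Schwann cell list. Sox10 of the latter had a slope of -0.16 (SE 0.07, limma adjusted p = 0.15). Of 13 white adipocyte genes 0 rose and 0 fell, with Adipoq at -0.07 (SE 0.23, adjusted p = 0.86). None of these calls held without AngII+ETH replicate 1 or without replicate 5, when 0 genes passed, and without both the slopes were 0.23 for Upk3b, 0.16 for Krt19, 0.27 for Plvap and 0.26 for Mbp. The oxidative genes named for the 6 libraries above changed unevenly. With all 12 libraries and without both, Fabp3 had slopes of -0.22 and -0.03 and Cox6a2 of -0.19 and -0.03. Acot2 had -0.23 and -0.15, Ckmt2 -0.24 and -0.19, Idh2 -0.18 and -0.12, and Etfdh -0.23 and -0.39. The slopes of Acadm and Hadh without both are not given here.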

How the data were processed

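Hearts yielded total RNA that was freed of rRNA and sequenced after NEBNext library preparation, per the labels' protocols. The authors deposited 1 value per transcript and library. No unit is stated, and the deposited values were taken as FPKM from their sizes, so depth and counting error are not given here. The aligner, build and annotation behind them are not stated in the sources used here, and the submitters' processing notes name limma.

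The saline and AngII files hold 30883 transcripts and the AngII+ETH files 30036, with 28886 in common. Of these, 20647 carry Ensembl names, and 20480 of those have an entry in GENCODE M21, which gave 12913 gene sums. The 8239 unnamed transcripts entered no gene sum, and 1171 genes lack a transcript in one of the lists. The 11938 genes that averaged at least 1 FPKM on 1 side or in the other 12 libraries entered the counts between the sides, and 11936 of them, without Myl7 and Myl2, the slope counts. Motif shares cover the 8697 tested genes with a RefSeq promoter. Values of overlapping genes and of near-identical copies are uncertain.

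The 6-library contrast was a description without a test. The slope in the other 12 libraries of log2(FPKM + 1) was fitted by limma-trend (limma 3.58.1, R 4.3.3), with calls at a Benjamini-Hochberg adjusted p under 0.05 over all genes in the fit. The fit was tested on simulated data with known changes. Because the labels do not give separate animals, the spread that p-values measure is that between these samples alone and may be technical. Tables and plots used Python 3.11.15, pandas 2.3.3 and matplotlib 3.10.9. The alternatives covered scaling, pseudocount, filter, the size of the difference, covariates, weights, the index and libraries left out.

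The libraries, the 44 gene lists and the tests were chosen with earlier results of these data known. The rule for named genes took 20 cardiac genes whatever their result, the 10 largest called differences at each end, up to 4 called members of each list described and the 5 smallest p-values in each direction of the slope. Dkk3, Sbk2, Fhl2, Gpr22, Nr2f2, Actn2, Wt1, Cdh5, Cidec, Plin1, Myh11, Acta2, Acadm and Hadh were named after their values were seen, as were Mb and Gapdh. A gene that the rule named is not reported here.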

Additional observations from a re-analysis of the deposited data

Results flagged for a closer look

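In 7 of the named genes the saline and the AngII comparison of the sides went opposite ways in every sample. Each set the atrium-dominant libraries of a treatment, 2 for saline and 1 for AngII, against the 1 ventricle-only library of the same treatment, and the difference between treatments was not tested. Nppb was -0.32 log2 units in saline and 1.83 in AngII, with 2004 FPKM in AngII replicate 5 and 99.2 and 74.7 FPKM in saline replicates 4 and 6. Hey2 was 0.55 in saline and -0.43 in AngII. The pacemaker channel gene Hcn4 was 1.23 in saline and -1.42 in AngII, where AngII replicate 5 held 0.251 FPKM. Gpt, at 18.9 and 28.5 FPKM in the saline pair and 0.436 FPKM in AngII replicate 5, was 0.63 and -3.25. Dgat2, at 206 and 411 FPKM in the saline pair and 37.1 FPKM in AngII replicate 5, was 0.85 and -2.22. Acta2, at 632 and 574 FPKM in the saline pair and 62.4 FPKM in AngII replicate 5, was 2.64 and -0.73. Gapdh was -1.82 and 0.48, at no more than 14.7 FPKM in any of the libraries. The saline pair also had high Adipoq, and treatment, adipocyte RNA and the single AngII library cannot be told apart here.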

How the results depend on the processing

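The 1337 genes called higher became 2086 with a pseudocount of 0.1, 769 with median-of-ratios scaling, 610 with quantile normalization, 2035 with saline libraries only and 245 at a difference of 2 or more. The 268 called lower became 580 and 558 with the scalings, 566 without the libraries with high Adipoq and 47 at a difference of 2. Leaving out 1 library gave 1317 to 1650 and 283 to 332. The 424 rising genes became 199 with median-of-ratios scaling, 220 with quantile normalization and 2009 with array quality weights, and the 141 falling genes 467, 345 and 591. Leaving out 1 library gave 0 to 921 rising and 0 to 334 falling. The 0 came without AngII+ETH replicate 1 or 5, and without both, an alternative chosen after seeing the data, 0 rose and 0 fell. The highest came without AngII+ETH replicate 3. The cause of these shifts was not tested. No named gene's difference or slope changed sign where it was called. Of the alternative differences of named genes, 1617 moved by less than the spread between libraries and 259 by more. Of their alternative slopes, 2591 kept their side of the threshold, 191 lost a call and 120 gained one. No paired analysis was possible because replicate numbers follow the order of accessions and pair no samples. Libraries at the ends of chamber makeup were few, treatment was unbalanced between the sides, and without counts the depth behind low values is unknown.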

Other observations

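Assembled transcripts without a gene name also differed between the sides. Of 6577 with a mean of 1 FPKM or more, 573 (8.71%) were called higher on the atrium-dominant side and 345 (5.25%) lower. The largest difference was in one at 132, 171 and 145 FPKM on the atrium-dominant side and listed at 0 in all ventricle-only libraries. Another was at 154, 480 and 3.23 FPKM against 0, 0.803 and 0 FPKM, high in the saline libraries with much Adipoq and low in AngII replicate 5. One of the lower ones was at 20.1, 0.963 and 4.55 FPKM against 386, 364 and 328 FPKM, highest on its side in saline replicate 4, as were Myl2 and Myl3. Which genes they belong to was not worked out here.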
